A study of Mus musculus with 12 samples.

Results

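The protein-coding genes of the large cytosolic ribosomal subunit were described across the deposited libraries of mouse 2-cell embryos. Members were chosen by symbol: genes named Rpl with a number, with or without the suffix a, l or al, together with Rpl22l1 and the genes Rplp0, Rplp1 and Rplp2, leaving out symbols that carry the pseudogene suffix -ps. This gave 53 genes, all of them listed in both deposited tables, which hold 17866 genes (knockdown experiment) and 19390 genes (immunoprecipitation). The rule uses symbols alone.

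In the knockdown experiment, 2 control libraries (Ctrl, genotype WT) and 2 knockdown libraries (KD, genotype Eif1ad3_KD) were sequenced. The series' design text places CF1 embryos injected at the 1-cell stage with RfxCas13d mRNA alone in the control group and embryos that also received a guide RNA in the knockdown group, whereas the treatment protocol names control or Eif1ad3 antisense morpholino oligos given to oocytes with Cas13d protein. In the immunoprecipitation, zygotes were injected with synthetic mRNA, transcribed in vitro, that encodes Eif1ad3 with a His tag (200 ng/uL), and RNA was recovered from 2-cell lysates (200 cells per replicate) with beads carrying an anti-His antibody (His, 2 libraries) or negative-control IgG (IgG, 2 libraries). Both of these groups carry the genotype label Eif1ad3_OE, so the IgG libraries share the injected mRNA with the His libraries, and the tagged protein comes from injected mRNA and not from the endogenous gene. The labels do not state how many embryos made up a knockdown or control library, nor whether replicates A and B came from separate pools, so p-values measure only the spread between these samples.

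The large subunit of the cytosolic ribosome carries the peptidyl transferase centre, where peptide bonds are formed, and the tunnel through which the new chain leaves. Its proteins are made in the cytoplasm, imported into the nucleolus and assembled there on ribosomal RNA. Most of their mRNAs begin with a C followed by a run of pyrimidines, the 5′ terminal oligopyrimidine (TOP) tract, which places their translation under growth signalling. The mouse oocyte stores ribosomes and maternal mRNAs, and the embryo starts transcribing its own genome in earnest at the 2-cell stage. Ribosomal protein genes have many processed pseudogenes, and the sources used here do not state how reads shared between near-identical copies were assigned, so values of single members are uncertain. In the tables, 63 and 53 genes with the prefix Rpl and the suffix -ps were listed, and their summed level was 1.12 to 2.68% of the summed level of the members in the 8 libraries.

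The start sites of the members were read from RefSeq promoters of the mouse build GRCm38.p6, in which 40 of the 53 symbols matched. The windows below run from 10 bases before the annotated start base to the 19 bases after it, and capitals mark the unbroken pyrimidine run that begins at the start base. The first set was chosen to show the TOP tract, and the last 3 windows, of paralogs with levels described further on, have a purine at the annotated start base; in Rpl22l1 a pyrimidine run begins at the very next base.
Rplp2 (chr7:141447641-141447670, plus strand): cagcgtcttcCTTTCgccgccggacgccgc
Rpl14 (chr9:120571507-120571536, plus strand): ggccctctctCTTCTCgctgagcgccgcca
Rpl15 (chr14:18270967-18270996, minus strand): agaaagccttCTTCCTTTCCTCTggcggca
Rpl28 (chr7:4792955-4792984, plus strand): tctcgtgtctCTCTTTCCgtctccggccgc
Rpl35 (chr2:39005112-39005141, minus strand): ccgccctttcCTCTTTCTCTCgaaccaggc
Rpl35a (chr16:33056472-33056501, plus strand): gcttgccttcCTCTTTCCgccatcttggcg
Rpl38 (chr11:114668570-114668599, plus strand): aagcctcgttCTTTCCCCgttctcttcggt
Rpl10l (chr12:66284382-66284411, minus strand): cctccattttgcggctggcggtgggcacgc
Rpl22l1 (chr3:28805498-28805527, plus strand): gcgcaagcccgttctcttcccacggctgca
Rpl39l (chr16:10170218-10170247, plus strand): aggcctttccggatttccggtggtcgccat

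A C at the annotated start base followed by at least 4 further pyrimidines was found at a start site of 8 of the 40 members (20.0%), against 3.01% of the 27025 genes in the promoter table. The eighth member with such a start was Rpl32l, a locus close to 0 in every library. The letters CCGGAAG, part of the site read by ETS-family activators, occurred on either strand in a promoter of 15 of the 40 members (37.5%), against 9.93% of all genes, where a promoter spans 250 bases before to 50 bases after the start. Annotated starts can lie a few bases from the start that is used, so the absence of a tract from these windows says only that it is not at the annotated base. The 7 tested members with the start tract had a median knockdown log2 fold change of -0.07 and the 32 without it of -0.58. The 13 members with no promoter entry had one of -0.55. Both knockdown libraries were below both controls in 3 of the 7, 20 of the 32 and 9 of the 13. These are descriptions with no test. The 32 include Rpl27a and Rpl7a, in which 16 and 7 pyrimidines run from an annotated T, with log2 fold changes of -0.35 and -0.79. In Rpl35, whose start base begins a run of 11 pyrimidines, the level was 53.2 and 58.0 CPM in Ctrl A and B and 37.5 and 74.1 CPM in KD A and B, so the groups overlapped.

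The deposited values are CPM (reads per gene scaled to a common library total), in which each value came out as a whole number of reads. Totals ran from 18173916 to 27902514 reads per library in the knockdown experiment and from 4678563 to 8364126 in the immunoprecipitation, and a floor of 3 reads is 0.108 to 0.641 CPM. Libraries were amplified without molecular identifiers, so this floor covers counting error only. CPM values are not divided by gene length, so levels are compared here between libraries and not between genes. All 5 markers of the 2-cell embryo (Zscan4c, Zscan4d, Zfp352, Dppa3 and Usp17la) were detected in the control and knockdown libraries, with sums of 7490 to 10731 CPM. Of 8 cumulus and granulosa cell markers at least 4 were absent or at 0 in each of these libraries, and the sum of the others was 5.94 to 13.8 CPM. The targeted gene Eif1ad3 was at 839 and 663 CPM in Ctrl A and B and at 277 and 377 CPM in KD A and B.

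The large-subunit genes as a group were lower in the knockdown libraries than in the controls. Their summed level was 15690 and 14838 CPM in Ctrl A and B, and 10559 and 7306 CPM in KD A and B. The sum made up 1.66% and 1.56% of all listed CPM in the controls and 1.11% and 0.777% in the knockdown libraries, so both knockdown libraries lay below both controls. The arrangement did not rest on the pair with the highest values, Rplp0 and Rpl41: the sum of the other 51 members was 5851 and 6336 CPM in Ctrl A and B and 4459 and 4102 CPM in KD A and B. CPM gives shares of a library's reads, so RNA amounts per embryo are not known. In bulk embryos, a lower share in all embryos and in some of them cannot be told apart. The summed large-subunit level was 2.17 and 1.92 times that of 36 small-subunit genes in Ctrl A and B, and 2.15 and 1.40 times in KD A and B, so this ratio set KD B apart but not KD A.

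**Figure D1:**
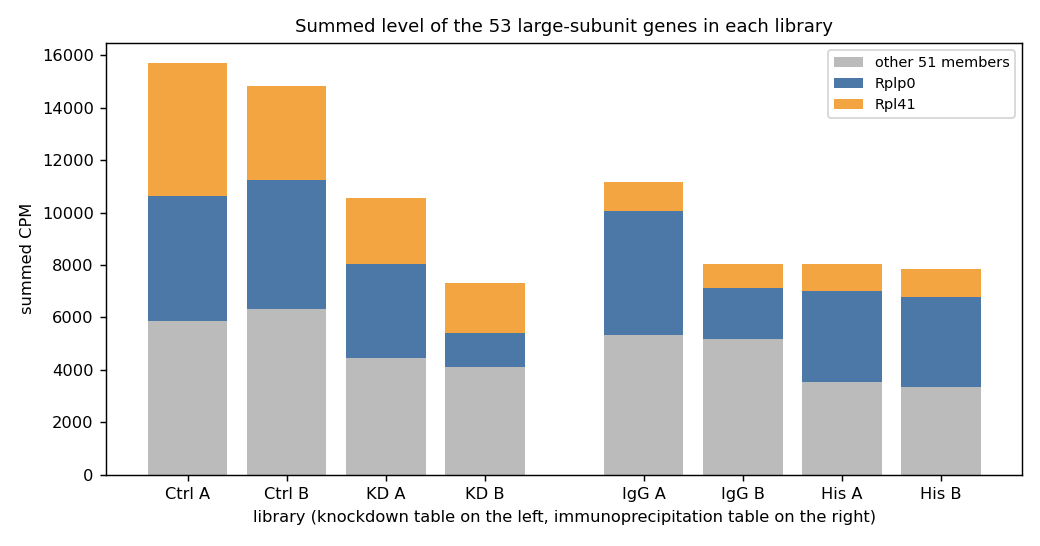
Summed CPM of the 53 large-subunit ribosomal protein genes in each library, with Rplp0 (blue), Rpl41 (orange) and the other 51 members (grey) stacked from 0. The knockdown table (Ctrl, KD) and the immunoprecipitation table (IgG, His) were normalized separately; the KD sums of 10559 and 7306 CPM lie below the Ctrl sums of 15690 and 14838 CPM.

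Gene by gene, none of the changes passed a test over all genes. Each gene that reached 1 CPM in 2 or more of the 4 libraries was tested on log2(CPM + 1) with limma, and 52 of the 53 members entered; Rpl32l did not. No member had a Benjamini-Hochberg adjusted p under 0.05, and neither did any of the 13332 genes tested (0%). The smallest adjusted p among the members was 0.859. At an unadjusted p under 0.05, 11 members (21.2%) were lower in the knockdown and 0 were higher, against 2.5% and 2.95% of all genes tested. With the other tools, 0 members passed with edgeR (10 unadjusted) or DESeq2 (11 unadjusted) on the recovered reads.

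The direction was shared by most members. Of the 52, 43 had a log2 fold change below 0 and 9 above, with a median of -0.55 against 0.02 over all genes tested. Both knockdown libraries were below both controls in 32 members (61.5%), an arrangement seen in 18.4% of all genes tested. Both were above both controls in 3 members (5.77%), against 18.1% of all genes tested. Relative to the control mean, the median member was at -0.43 log2 units in KD A and -0.54 in KD B, and at -0.07 and 0.07 in Ctrl A and B. The median of all genes tested was at 0.14 in KD A and -0.17 in KD B, so KD A and KD B lay on opposite sides of the controls over all genes and on the same side for the members. The fold changes of the members ran from -1.17 to 1.27.

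**Figure D2:**
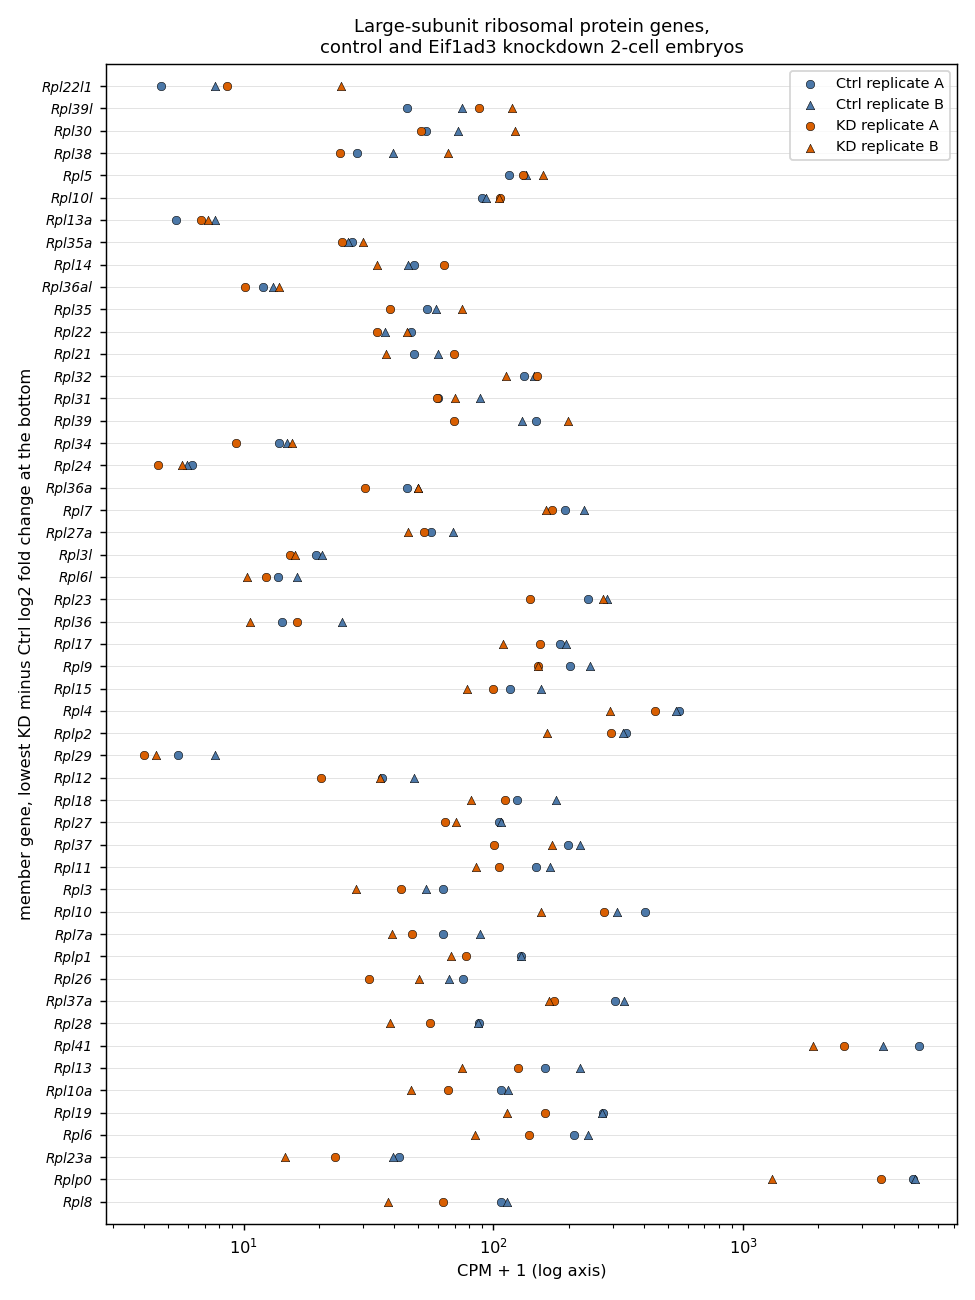
CPM + 1 on a log axis for 51 of the 52 tested large-subunit genes in control (blue) and knockdown (orange) libraries, circles for replicate A and triangles for replicate B, ordered by log2 fold change with the lowest at the bottom. Both knockdown points lie left of both control points in 31 of the genes drawn, and right of both in Rpl10l, Rpl39l and Rpl22l1.

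The P stalk, an acidic arm of the subunit that recruits the elongation factors, is formed by Rplp0, its base, and Rplp1 and Rplp2, which dimerize on it. Rplp0 was at 4795 and 4890 CPM in Ctrl A and B and at 3574 and 1300 CPM in KD A and B. Both knockdown libraries were below the controls, and KD B stood far below KD A. Its log2 fold change was -1.17 (SE 0.46, unadjusted limma p 0.0354, adjusted p 0.859). Without KD A it was -1.90 and without KD B -0.44, so its size rested on KD B. Rplp1 was at 128 and 129 CPM in the controls and at 77.1 and 66.8 CPM in KD A and B, with the replicates of each group close together. Its log2 fold change was -0.83 (SE 0.34, unadjusted limma p 0.0413, adjusted p 0.859). Rplp2 was at 339 and 328 CPM in the controls and at 294 and 163 CPM in KD A and B, again with KD B the lowest (log2 fold change -0.60, SE 0.37).

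Members of the body of the subunit had knockdown levels as low as those of the stalk genes, relative to controls. Rpl8, a protein next to the peptidyl transferase centre, was at 106 and 112 CPM in Ctrl A and B and at 62.1 and 36.9 CPM in KD A and B. Its knockdown mean of 49.5 ± 17.8 CPM (SD, n = 2) was 45.3% of the control mean of 109 ± 4.14 CPM (SD, n = 2), and its log2 fold change of -1.17 (SE 0.40) had an adjusted p of 0.859 in limma. Rpl23a, which sits at the mouth of the exit tunnel, was at 41.1 and 38.7 CPM in Ctrl A and B and at 22.3 and 13.7 CPM in KD A and B. Rpl6 was at 209 and 238 CPM in the controls and at 138 and 83.1 CPM in the knockdown libraries. Rpl19, which reaches across to the small subunit, was at 275 and 272 CPM in the controls and at 161 and 112 CPM in the knockdown libraries. In these 4 genes the groups did not overlap and the knockdown mean was 45.2 to 49.9% of the control mean. In each of them KD B was lower than KD A.

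Rpl41, a very short basic protein at the interface of the subunits, was at 5043 and 3613 CPM in Ctrl A and B and at 2525 and 1904 CPM in KD A and B. The controls differed from each other by more than the knockdown libraries did, and the groups did not overlap (log2 fold change -0.96, SE 0.33, unadjusted limma p 0.0189, adjusted p 0.859). Rpl37a was the member with the closest knockdown replicates among those lower at an unadjusted p under 0.05: 305 and 331 CPM in the controls and 173 and 166 CPM in KD A and B. Rpl4, whose long loop lines the exit tunnel, was at 552 and 540 CPM in the controls and at 442 and 292 CPM in the knockdown libraries (log2 fold change -0.60, SE 0.33). The remaining members with an unadjusted p under 0.05 were Rpl10a, Rpl13 and Rpl28, with knockdown means of 50.4 to 53.6% of the control means.

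Of the 52 tested members, 9 had a log2 fold change above 0. Rpl5 and Rpl11 form a particle with the small ribosomal RNA of the subunit, and they lay on opposite sides of 0. Rpl5 was at 115 and 134 CPM in Ctrl A and B and at 131 and 157 CPM in KD A and B, so its groups overlapped (log2 fold change 0.20, SE 0.34). Rpl11 was at 147 and 168 CPM in the controls and at 105 and 84.0 CPM in the knockdown libraries (log2 fold change -0.74, SE 0.34, unadjusted limma p 0.0626). Rpl30 was at 52.8 and 71.1 CPM in the controls and at 50.4 and 121 CPM in KD A and B. Rpl38, known from the skeletal defects of its mouse mutant, was at 27.4 and 38.7 CPM in the controls and at 23.4 and 64.7 CPM in KD A and B. In Rpl30 and Rpl38, KD A lay below the controls and KD B above them, and their fold changes of 0.35 and 0.25 became -0.28 and -0.46 without KD B.

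Among the 5 paralogs, Rpl10l, Rpl22l1 and Rpl39l had a log2 fold change above 0, and their parents had one below 0. Rpl39 was above 0 with edgeR (0.035), with DESeq2 (0.058) and without KD A (0.52), and Rpl22 without Ctrl A (0.093) and without KD A (0.12). Rpl10l is an autosomal retrocopy of the X-linked Rpl10, and it stands in for Rpl10 in male meiosis. Rpl10 was at 404 and 311 CPM in Ctrl A and B and at 278 and 154 CPM in KD A and B (log2 fold change -0.78, SE 0.38). Rpl10l was at 89.0 and 92.1 CPM in the controls and at 105 and 104 CPM in KD A and B, above both controls by a small margin (log2 fold change 0.20, SE 0.34, adjusted limma p 0.961). Rpl22l1, the paralog that can replace the non-essential Rpl22, was at 3.68 and 6.71 CPM in the controls and at 7.60 and 23.6 CPM in KD A and B. Its log2 fold change of 1.27 (SE 0.66, adjusted limma p 0.859) was the highest of the tested members and was 0.52 without KD B. Rpl22 itself was at 45.8 and 35.7 CPM in the controls and at 33.2 and 44.0 CPM in the knockdown libraries, with overlapping groups.

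Rpl39l, a paralog of the exit-tunnel protein Rpl39 that is prominent in the male germ line, was at 44.0 and 74.2 CPM in Ctrl A and B and at 86.9 and 118 CPM in KD A and B (log2 fold change 0.81, SE 0.41, adjusted limma p 0.859). Rpl39 was at 147 and 129 CPM in the controls and at 68.6 and 197 CPM in KD A and B, on either side of the controls. Rpl3l, the paralog of Rpl3 in striated muscle, was at 18.5 and 19.7 CPM in the controls and at 14.3 and 15.0 CPM in the knockdown libraries. Its parent Rpl3, which helps shape the peptidyl transferase centre, was at 61.7 and 52.7 CPM in the controls and at 41.6 and 27.3 CPM in KD A and B. Both were lower in the knockdown, with log2 fold changes of -0.36 (SE 0.45) and -0.74 (SE 0.41). Rpl36al was at 10.9 and 12.1 CPM in the controls and at 9.17 and 12.9 CPM in the knockdown libraries, and Rpl36a at 44.1 and 48.9 CPM and at 29.7 and 49.1 CPM, so both pairs of groups overlapped.

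The level of a paralog as a percent of its parent in the same library does not depend on library scaling. For Rpl10l over Rpl10 it was 22.0% and 29.6% in Ctrl A and B and 37.8% and 67.6% in KD A and B. For Rpl22l1 over Rpl22 it was 8.03% and 18.8% in the controls and 22.9% and 53.6% in KD A and B. For Rpl39l over Rpl39 it was 30.0% and 57.6% in the controls, 127% in KD A and 59.7% in KD B, the last barely above Ctrl B. For Rpl36al over Rpl36a the percent was 24.8% and 24.7% in the controls and 30.8% and 26.2% in KD A and B. The knockdown libraries were thus above both controls in 4 of the 5 pairs. The margin was narrow for KD B in Rpl36al over Rpl36a and in Rpl39l over Rpl39. In the fifth, Rpl3l over Rpl3, it was 30.0% and 37.3% in the controls and 34.4% and 55.0% in KD A and B, overlapping. A higher percent can come from a higher paralog or a lower parent. The share of such arrangements over other gene pairs was not computed, so the count of 4 is a description. With 2 libraries against 2, an exact two-sided permutation test cannot give a p below 0.333.

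**Figure D3:**
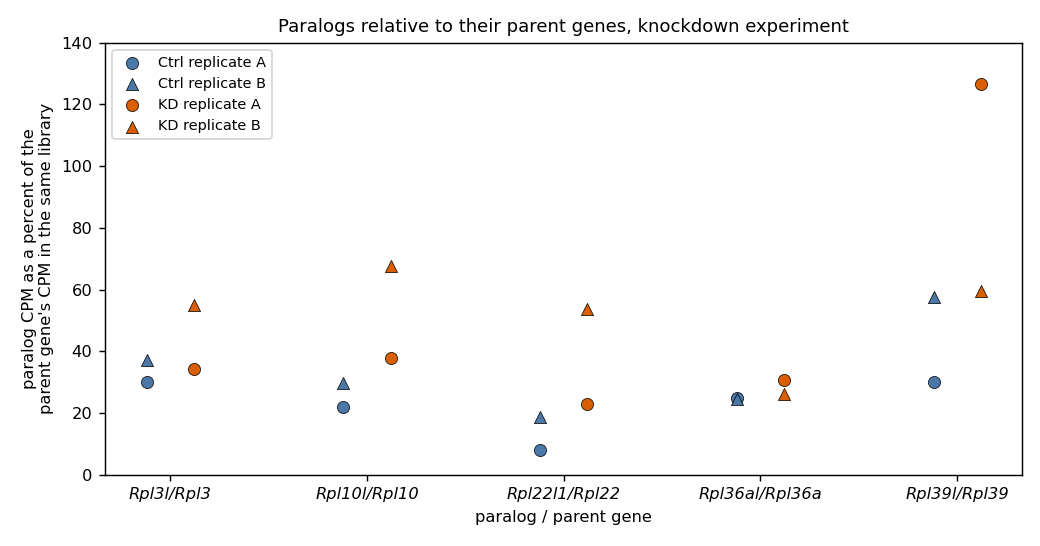
CPM of each paralog as a percent of the CPM of its parent gene in the same library, for controls (blue) and knockdown (orange), circles for replicate A and triangles for replicate B. The knockdown points lie above both control points for 4 pairs and overlap them for Rpl3l over Rpl3.

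Related genes were counted in the same fit, from lists chosen with earlier results of these data known. Among 36 small-subunit genes, 34 were lower and 2 higher, with a median log2 fold change of -0.65, and both knockdown libraries were below both controls in 25 (69.4%). The lowest was Rps4l, at 72.0 and 111 CPM in Ctrl A and B and at 34.2 and 29.7 CPM in KD A and B. Among 59 tested factors that assemble the large subunit, 40 were lower and 19 higher, with a median of -0.34, and 22 (37.3%) had both knockdown libraries below both controls. Znhit3 was the lowest of these, at 1277 and 1322 CPM in the controls and at 592 and 597 CPM in the knockdown libraries, with close replicates in both groups. Among 20 other mRNAs known for a TOP tract, 12 were lower and 8 higher, with a median of -0.12, and 8 (40%) had both knockdown libraries below both controls. The last arrangement was seen in 18.4% of all genes tested. The elongation factor mRNA Eef2 was at 121 and 109 CPM in the controls and at 75.1 and 38.5 CPM in KD A and B, while Eif3e was at 70.4 and 107 CPM in the controls and at 128 and 271 CPM in KD A and B. None of the genes of these 3 lists had an adjusted p under 0.05 in limma, and 9, 6 and 2 of them, in the order given (25%, 10.2% and 10%), were lower at an unadjusted p under 0.05, against 2.5% of all genes. At the same threshold 0, 0 and 1 (Eif3e) were higher, against 2.95% of all genes.

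**Figure D4:**
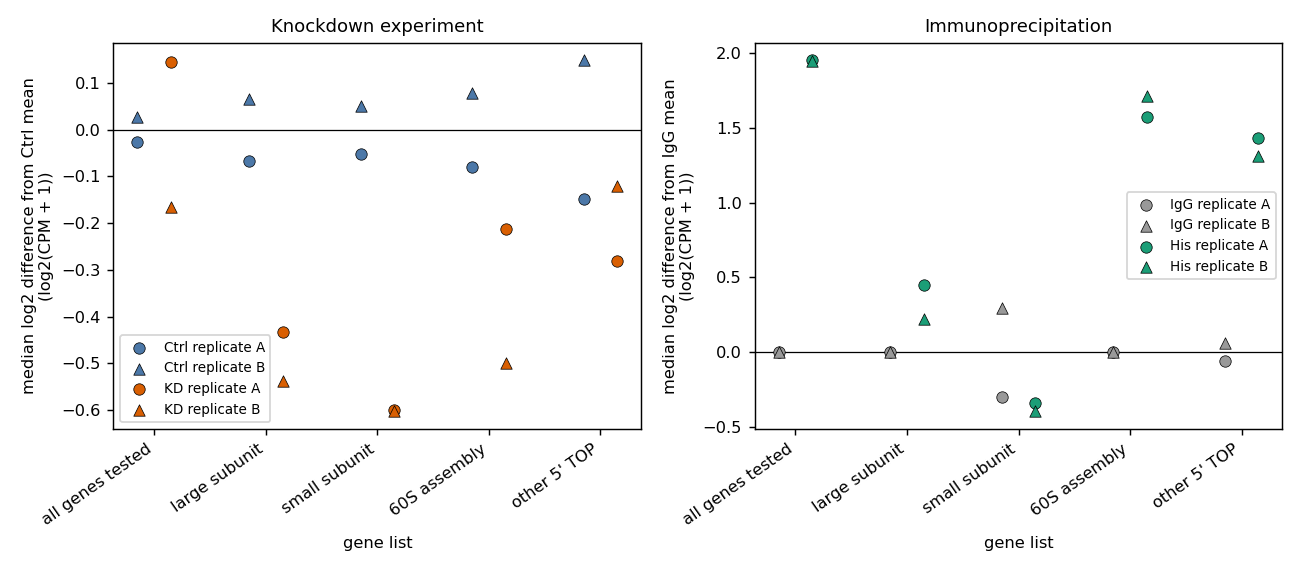
Median difference from the reference group's mean, in log2(CPM + 1) units, for each gene list in each library; the reference is Ctrl on the left and IgG on the right, circles are replicate A and triangles replicate B. The large-subunit median is -0.43 and -0.54 in KD A and B, and 0.45 and 0.22 in His A and B, where all genes tested are at 1.95 in both; with quantile normalization, edgeR or DESeq2 the large-subunit median between His and IgG falls below 0.

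The knockdown replicates differed from each other in ways that bear on these values. Over the 52 tested members, the median SD between replicates was 0.36 log2 units in the knockdown and 0.13 in the controls. The summed level of 7 oocyte markers (Gdf9, Bmp15, Zp1, Zp2, Zp3, Nlrp5 and Oosp1, none at 0) was 4014 and 3415 CPM in Ctrl A and B, 6866 CPM in KD A and 3822 CPM in KD B. The members were lower in both knockdown libraries, of which only KD A had an oocyte marker sum above the control range. The 4 blood markers, 3 of them absent or at 0, summed to 24.6 and 18.7 CPM in Ctrl A and B, 19.9 CPM in KD A and 6.77 CPM in KD B. The part of these differences in the result was not tested. Without KD A, when the single knockdown library is assumed to vary like the controls, 22 members (42.3%; 19 lower and 3 higher) passed the adjusted threshold, against 15.1% of all genes then tested, with a median of -0.54. Without KD B, 4 (7.69%) passed, all lower, against 3.23% of all genes, with a median of -0.43.

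In the immunoprecipitation, the share of reads that large-subunit mRNAs took up with anti-His beads did not exceed the range of the IgG libraries. The summed level of the members was 11164 and 8023 CPM in IgG A and B, against 8052 and 7829 CPM in His A and B, so His A lay within the IgG range and His B just below it. Without Rplp0 and Rpl41 the other 51 members summed to 5320.5 and 5174 CPM in IgG and to 3530.0 and 3345 CPM in His. Of the 53 members, 13 and 15 had no read in IgG A and B, while 33 reached 10 CPM in each. In His A and B, 2 and 1 had no read and 46 and 45 reached 10 CPM. Of all 19390 listed genes, 12574 and 12217 had no read in IgG A and B, and 5146 and 5313 in His A and B. At least 1 CPM was reached by 5148 and 5564 genes in IgG A and B, and by 12246 and 12270 in His A and B. Marker sums of the embryo differed between the beads too: the 5 markers of the 2-cell stage reached 939 and 1519 CPM in IgG A and B, and 4700 and 4530 CPM with anti-His beads, and the 7 oocyte markers 3128 and 3736 CPM in IgG and 8105 and 8420 CPM in His. Of the 2-cell markers 1 was at 0 in IgG A, and of the oocyte markers 1 in each IgG library. Cumulus and granulosa cell markers summed to 0 in both IgG libraries and to 5.98 and 14.9 CPM in His A and B, with 5 of 8 absent or at 0. The 4 blood markers also summed to 0 in both IgG libraries and to 55.7 and 70.2 CPM in His A and B, with 2 of them absent. The part of these differences in the results was not tested.

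Of the 50 members tested between His and IgG (all but Rpl22l1, Rpl24 and Rpl32l), 30 had a log2 fold change above 0 and 20 below; with quantile normalization, edgeR and DESeq2 the split turned over, with 29, 28 and 31 of the 50 below 0. Their median was 0.39, or -0.38 after quantile normalization, -0.13 by edgeR and -0.39 by DESeq2, against 2.01 over all 11232 genes tested (-0.08, 1.56 and 1.30 in the same settings). At an adjusted p under 0.05 in limma, 10 members (20.0%) were higher in His, against 35.7% of all genes, and 1 (2.00%) was lower, against 0.917%. Both His libraries were above both IgG libraries in 13 members (26.0%), against 54.1% of all genes tested, and below both in 15 (30.0%), against 9.06%. Of the 10 called higher, 9 were under 1 CPM in both IgG libraries, 7 of them with no read there. These 9 entered the test only through the His libraries where they were high, and their calls support nothing further. Over all genes tested, 28.2% had no read in either IgG library and entered in the same way. The number called depended on the tool: edgeR on the recovered reads called 0 members (10 unadjusted), quantile normalization 0 (8 unadjusted) and DESeq2 17 (34.0%), of which 7 were lower, against 49.1% of all genes with DESeq2.

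**Figure D5:**
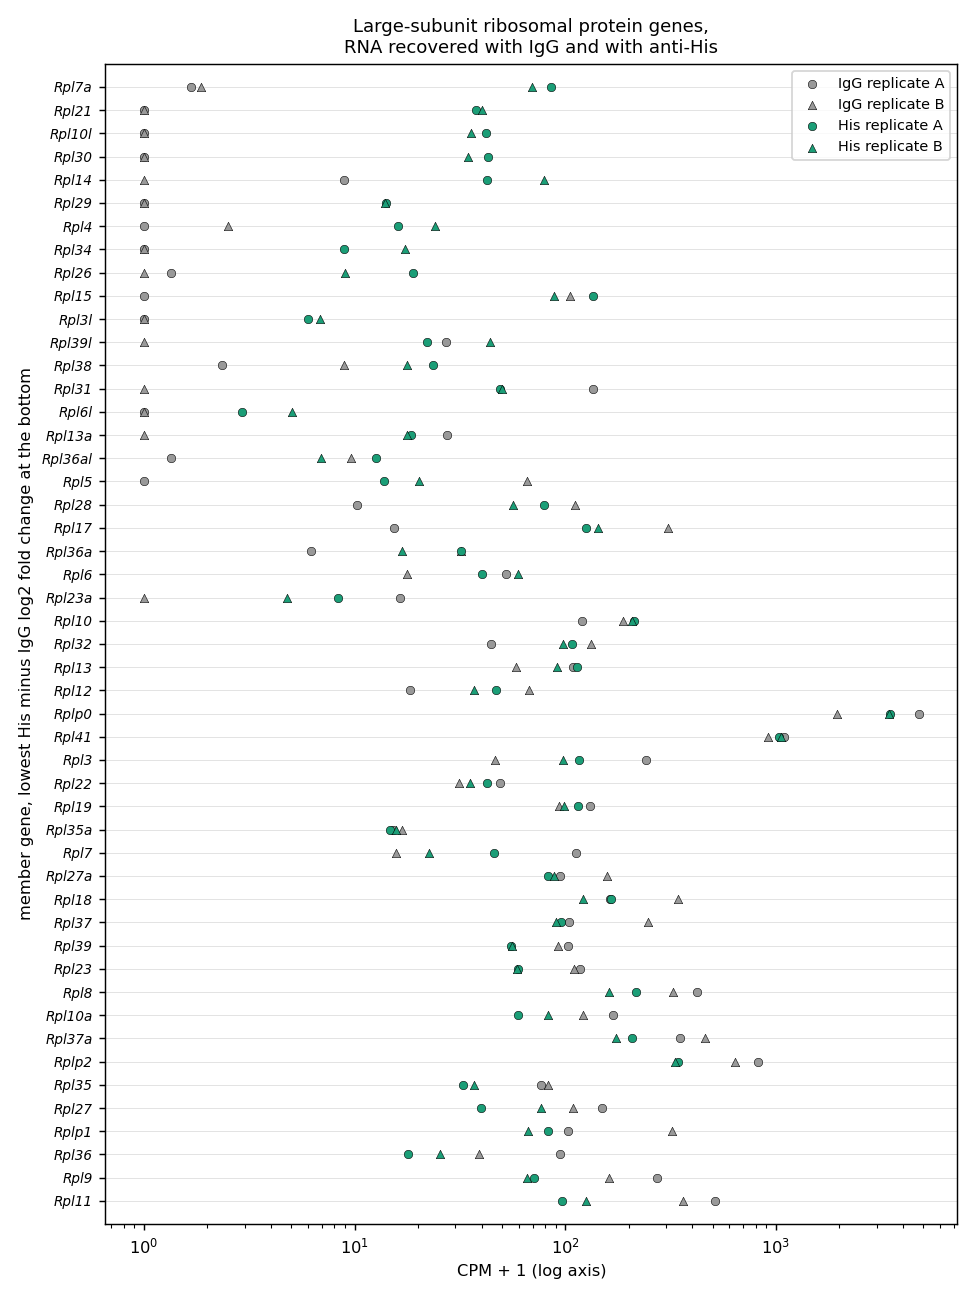
CPM + 1 on a log axis for 49 of the 50 tested large-subunit genes in IgG (grey) and His (green) libraries, circles for replicate A and triangles for replicate B, ordered by log2 fold change with the lowest at the bottom; a value of 1 means no read. Both His points lie left of both IgG points in 14 of the genes drawn and right of both in 13.

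The stalk genes were recovered with both kinds of beads. Rplp0 was at 4755 and 1938 CPM in IgG A and B against 3489 and 3424 CPM in His A and B, between the IgG values. Its log2 fold change was 0.19 (SE 0.50, adjusted limma p 0.840), and -0.18 with median rescaling, -0.11 with edgeR and -0.38 with DESeq2. It passed as higher without IgG A (0.83) and as lower without IgG B (-0.46). Rplp1 was at 102 and 318 CPM in IgG against 81.5 and 65.4 CPM in His, with both His libraries below both IgG libraries (log2 fold change -1.29, SE 0.88). Rplp2 was at 820 and 637 CPM in IgG A and B against 341 and 331 CPM in His A and B. Its log2 fold change of -1.10 (SE 0.25, adjusted limma p 0.0462) was the only call in favour of IgG among the members; it passed with a pseudocount of 0.1 and with DESeq2, and did not in the other 7 alternatives that kept all 4 libraries (adjusted p 0.0599 to 0.244).

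Other members had a higher CPM in both IgG libraries and did not pass in limma with the pseudocount of 1 and all 4 libraries. CPM is a share of each library, and fewer genes were detected in IgG, so a higher CPM there does not show that more RNA was recovered. Rpl11 was at 514 and 359 CPM in IgG A and B against 94.9 and 124 CPM in His A and B, the lowest fold change of the members on the log2(CPM + 1) scale (log2 -1.98, SE 0.48, adjusted limma p 0.0547); it passed with a pseudocount of 0.1 (adjusted p 0.0416) and with DESeq2 (adjusted p 0.000152). Rpl9 was at 272 and 159 CPM in IgG against 69.8 and 64.8 CPM in His, a log2 fold change of -1.62 (SE 0.67, adjusted limma p 0.172), and it passed with DESeq2 (adjusted p 0.0110). Rpl36 was at 92.8 and 37.8 CPM in IgG against 16.9 and 24.5 CPM in His, and Rpl27 at 148 and 108 CPM against 38.7 and 75.5 CPM. Rpl41 was nearly level, at 1088 and 912 CPM in IgG A and B against 1032 and 1060 CPM in His A and B.

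A second set of members was present in His and at or near 0 in IgG. No read in either IgG library was found for 7 of the 50 tested members (14%), against 28.2% of all genes tested. Rpl7a was at 0.675 and 0.855 CPM in IgG A and B (4 reads each) and at 84.2 and 68.6 CPM in His A and B. Its log2 fold change was 5.45 (SE 0.64) with the pseudocount of 1. Rpl21, Rpl30 and Rpl10l had no read in either IgG library. Rpl21 was at 36.6 and 39.2 CPM in His A and B, at least 66.0-fold higher than the floor of 3 reads per IgG library (0.574 CPM on average). Rpl30 was at 42.1 and 33.3 CPM in His (at least 65.7-fold higher) and Rpl10l at 40.9 and 34.6 CPM (at least 65.8-fold higher). Rpl29 and Rpl34, also with no read in IgG, averaged 13.0 ± 0.105 and 12.1 ± 5.94 CPM in His (SD, n = 2), at least 22.6-fold and 21.1-fold higher. None of these 6 genes passed with quantile normalization or edgeR.

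The 4 remaining calls in favour of His rested on 0 to 7 reads per IgG library. Rpl4 was at 15.1 and 23.1 CPM in His A and B and had 0 and 7 reads in IgG A and B (adjusted limma p 0.0299, and 0.176 with edgeR). Rpl26 was at 17.8 and 7.96 CPM in His and had 2 and 0 reads in IgG. Rpl3l was at 5.02 and 5.81 CPM in His and had no read in IgG, at least 9.44-fold higher. Rpl6l was at 1.91 and 4.04 CPM in His and had no read in IgG, at least 5.19-fold higher. Rpl14 was at 41.6 and 78.2 CPM in His and at 7.93 and 0 CPM in IgG, a difference that did not pass (adjusted limma p 0.111).

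Detection in IgG was uneven within the family. Of the 37 tested members that reached 10 CPM in an IgG library, 6 (16.2%) had no read in the other: Rpl5, Rpl13a, Rpl15, Rpl23a, Rpl31 and Rpl39l. Over all genes tested the same share was 32.5%, and among the members in His it was 0 of 47. Rpl15 was at 0 and 105 CPM in IgG A and B against 134 and 87.4 CPM in His A and B. Rpl31 was at 134 and 0 CPM in IgG against 47.8 and 49.3 CPM in His. Both His libraries were above IgG B and below IgG A in Rpl31, and IgG B lay between the His libraries in Rpl15. Over the tested members, the IgG replicates had a median SD of 0.59 log2 units and the His replicates of 0.21. Without IgG A, 30 members (60%; 17 higher and 13 lower, median 0.10) passed the adjusted threshold, against 69.1% of all genes. Without IgG B, 36 did (72.0%; 20 higher and 16 lower, median -0.10), against 70% of all genes. In both cases the single IgG library was assumed to vary like the His libraries, and the members' share was near that of all genes. Without His A or His B, the filter removed 9 of the 10 members called higher, so the 0 calls among the 41 then tested say nothing about them.

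Of the 5 paralogs, Rpl3l, Rpl10l and Rpl22l1 had no read with IgG, and their parents had reads in both IgG libraries. Rpl10 was at 119 and 187 CPM in IgG A and B against 211 and 206 CPM in His A and B, so it was recovered with IgG where Rpl10l was not. Rpl39 was at 102 and 90.8 CPM in IgG against 54.4 and 55.1 CPM in His, and Rpl39l at 26.2 and 0 CPM in IgG and 21.0 and 42.7 CPM in His. Rpl3 was at 240 and 45.1 CPM in IgG against 114 and 96.9 CPM in His, with His between the IgG replicates. Rpl22 was at 47.9 and 30.1 CPM in IgG against 41.2 and 34.1 CPM in His, whereas Rpl22l1 had no read in IgG or His A and 0.884 CPM in His B. Rpl36a was at 5.23 and 30.8 CPM in IgG against 30.8 and 15.8 CPM in His, and Rpl36al at 0.338 and 8.55 CPM in IgG and 11.6 and 5.94 CPM in His, so both overlapped.

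The related lists gave other counts between His and IgG. Of 36 small-subunit genes, 13 were higher and 23 lower in His (median log2 fold change -0.34), with 1 called higher and 0 lower at an adjusted p under 0.05 in limma. That call was Rps23, at 0 and 3.85 CPM in IgG A and B against 82.3 and 82.9 CPM in His A and B. Of 54 tested assembly factors, 40 were higher and 14 lower (median 1.55), with 13 (24.1%) called higher and 0 lower. Of 18 tested other TOP mRNAs, 13 were higher and 5 lower (median 1.26), with 3 (16.7%) called higher and 0 lower. Over all genes tested the median was 2.01 and 35.7% were called higher, above the values of these lists, a difference that was not tested. No read in either IgG library was found for 10 assembly factors (18.5%), 2 other TOP mRNAs (11.1%) and 0 small-subunit genes. Over all genes tested this share was 28.2%, and all such genes entered the test only through His. Eef1b2 was among the called genes, at 0.675 and 1.71 CPM in IgG against 65.6 and 82.0 CPM in His, while Eef1d was at 284 and 436 CPM in IgG against 100.3 and 85.8 CPM in His (adjusted limma p 0.0738).

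The order of levels across the members was more alike between the control, knockdown and His replicates than between the IgG replicates. Over the 53 genes, Spearman's rho was 0.986 for Ctrl A with B, 0.954 for His A with B, 0.898 for KD A with B and 0.764 for IgG A with B. It was 0.885 to 0.968 between control and knockdown libraries and 0.749 to 0.814 between His and IgG libraries. Between tables, which were normalized separately, it was 0.775 to 0.788 for controls with His and 0.636 to 0.731 for controls with IgG. Members share gene length and base composition in every library, so these values are descriptions. Rpl4 is an example of a member whose place differed between the tables, at 552 and 540 CPM in the control embryos and at 15.1 and 23.1 CPM in His A and B, while Rplp2 was at 339 and 328 CPM in the controls and at 341 and 331 CPM in His.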

How the data were processed

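The deposited tables hold CPM, which the authors made from reads per gene; Trim Galore 0.6.7, FastQC, HISAT2 2.2.1, featureCounts 2.0.1, edgeR and GRCm39 are named, with no role, in the submitters' processing notes. The annotation and the treatment of reads matching several genes are not given in the sources used here. All values (100%) were whole reads within 0.01 of a read, so reads were recovered. Of 12 labelled samples, 8 were used: 4 value columns of the immunoprecipitation table carry names that do not decide between the input and total RNA samples, so they were not used and the planned comparison of His with Input was not run.

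For every gene reaching 1 CPM in 2 or more of the libraries compared, log2(CPM + 1) was tested with limma 3.58.1 in R 4.3.3 (eBayes with trend, two-sided) with Benjamini-Hochberg adjustment over all genes and a threshold of 0.05. The fit was also run on simulated reads with a common dispersion for all genes, which did not model genes absent from IgG. No result here rests on that run. Unless another tool, pseudocount or floor is named, fold changes are differences of log2(CPM + 1), so those of low genes are understated. SE values are limma's moderated ones. The tables were normalized separately and tested separately. On the recovered reads edgeR 4.0.16 (quasi-likelihood) and DESeq2 1.42.0 were alternatives, as were other pseudocounts, filters and scalings, the replicate letter as a block, and leaving out each library.

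Members and lists were chosen with earlier results of these data known. Named members are the stalk genes, 5 paralogs and their parents, the 5 highest in controls and the 5 highest and lowest fold changes in each comparison; of the other lists, those with the highest or lowest fold changes. Any other gene given with values was chosen after its values were seen. Directions of members that did not pass are those of their means. Of the members, 1 is not reported here by name and it is left out of the plots by gene, while counts and medians include it.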

Additional observations from a re-analysis of the deposited data

How the results depend on the processing

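In knockdown against control embryos the member median (-0.55) stayed below 0 in every alternative run, from -0.64 for members averaging 100 CPM or more to -0.47 with a pseudocount of 5, and from -0.586 to -0.376 when a library was left out. The count of members with both knockdown libraries below both controls was 32 with median rescaling and 31 with quantile normalization; this and the restriction to members averaging 100 CPM or more were chosen after seeing the data. Members called (0) remained 0 except when a library was left out (0 to 22), as genes called over all genes went from 0 to 0 to 1894. With the replicate block 2 genes were called and with DESeq2 15, no member among them. The replicate letters do not state that libraries were handled together; deviations of same-letter libraries correlated at 0.146 in this table and -0.014 in the other. Over the 52 members, 0 to 2 changed direction in any alternative that kept all libraries, and 15 did when some library was left out. Among the members named by rule these were Rpl39 with edgeR (0.035) and DESeq2 (0.058), and, over the fits without a library, Rpl39 (-0.99 to 0.52), Rpl22 (-0.28 to 0.12), Rpl36a (-0.63 to 0.078), Rpl36al (-0.30 to 0.15), Rpl30 (-0.28 to 0.97) and Rpl38 (-0.46 to 0.97). In each case the cause was not tested.

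Between His and IgG the member median (0.39) was 0.19 with a pseudocount of 5, 0.0196 with median rescaling, -0.13 by edgeR, -0.39 by DESeq2, -0.38 after quantile normalization, -0.79 for members averaging 100 CPM or more and -0.097 to 0.12 when a library was left out; the all-gene median was higher in every setting that recomputed both. Genes called (4111) were 2356 at a mean of at least 5 CPM, 0 with quantile normalization (2339 unadjusted), 0 with edgeR (4592 unadjusted) and 6 to 7679 without a library. Members called (11) were 0 after quantile normalization, 0 by edgeR, 17 by DESeq2 and 0 to 36 without a library; with the replicate block 10 were, and Rplp2 (adjusted p 0.142) no longer was. Over the 50 members, 5 changed direction with median rescaling, 11 after quantile normalization, 8 by edgeR, 11 by DESeq2 and 19 when some library was left out, with the widest range in Rpl31 (-1.45 to 5.63). Among the members named by rule these were Rpl3 with a pseudocount of 5 (-0.0054), median rescaling (-0.36), edgeR (-0.63) and DESeq2 (-0.91); Rplp0 with median rescaling (-0.18), edgeR (-0.11) and DESeq2 (-0.38); Rpl41 in the same settings (-0.30, -0.033 and -0.29); and Rpl3l (-0.015), Rpl36a (-1.73) and Rpl36al (-1.53) with quantile normalization; and, over the fits without a library, Rplp0 (-0.46 to 0.83), Rpl3 (-1.18 to 1.21), Rpl22 (-0.35 to 0.31), Rpl36a (-0.46 to 1.89), Rpl36al (-0.031 to 2.81) and Rpl41 (-0.057 to 0.20). The cause was not tested. The low totals of the IgG libraries limit what can be said of members under 0.641 CPM there.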
